A study of Bos taurus with 30 samples.

Results

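The microRNAs miR-33a and miR-33b were followed in small RNA sequencing of the anterior lobe of the pituitary, which secretes growth hormone, prolactin and the gonadotropins, from 30 Holstein-Friesian bull calves, with 1 library per calf. They are 2 of the 1030 bovine mature miRNAs in the deposited table, chosen by name as the only rows called bta-miR-33a or bta-miR-33b, and both were among the 419 miRNAs that passed the filter on low counts. Diets ran from 2 weeks of age until tissue was taken at 12 weeks. The 15 HI calves received 1.5 kg of milk replacer in 10 litres per day with ad libitum concentrate. The 15 MOD calves received 0.5 kg in 4 litres per day with at most 0.5 kg of concentrate. All calves also had hay each day. The question of the comparison was how the pituitary responds to a higher plane of nutrition early in life. The name rule uses no value, but the pair was proposed with the diet comparison of these 30 calves already made, so it may have been selected on its levels there, and its diet values are a description and no independent support.

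A miRNA is a short RNA that pairs with messenger RNAs, mainly through its seed near the 5′ end, and lowers the protein made from them. miR-33a and miR-33b share the same seed and are carried within the genes of the SREBP transcription factors. SREBF2 encodes SREBP-2, which switches on cholesterol synthesis and uptake, and SREBF1 encodes SREBP-1, which drives fatty acid synthesis. Since the miRNAs are made from the transcripts of these hosts, they are known for acting alongside them, and they lower ABCA1, the pump that exports cholesterol from cells, and enzymes of fatty acid oxidation. Rodents lack miR-33b, whereas cattle and humans have both. By RefSeq's bovine annotation, on assembly ARS-UCD2.0 and used for names and neighbours only, MIR33A lies within SREBF2 and MIR33B within SREBF1. Lying within a gene is common among miRNAs, as 231 of the 406 tested miRNAs that matched a gene there (56.9%) lie within a protein-coding gene. The messenger RNAs of SREBF1, SREBF2 and ABCA1 were not analysed here.

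Reads on miRNAs numbered 6650492 to 11086524 per library. The values are CPM (reads of a miRNA per 1000000 reads on miRNAs) after TMM scaling, which corrects library totals for composition. The libraries carried the miRNAs of an endocrine gland: miR-375, an abundant miRNA of hormone-secreting cells, averaged 146057 CPM, whereas the liver miRNA miR-122 was at 0 in 17 of 30 libraries and miR-1 and miR-206 of striated muscle were at 0 in 29 each. Other miRNAs on those marker lists were present in every library, with means of 6333 CPM for miR-192 and 104 CPM for miR-194 on the liver list and 13.2 CPM for miR-133a on the muscle list. The labels name no batch, but the 9 libraries with the highest calf label numbers (5 HI and 4 MOD) stand apart from the other 21 in many miRNAs, a split first noticed in other miRNAs of these data. Values are therefore also given within these sets. As the tissue was bulk, fewer cells of a type and less RNA per cell cannot be told apart.

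Both members were scarce. miR-33a averaged 10.1 ± 1.47 CPM (SD, n = 30) and ranked 298 by mean level among all 1030 names, and miR-33b averaged 2.99 ± 0.769 CPM (SD, n = 30) and ranked 361. Each was detected in every library, miR-33a with 65 to 118 reads and miR-33b with 10 to 40. In each of the 30 libraries the reads of both were whole numbers within 0.001 of a read, so none were divided into fractions between near-identical miRNAs. A read counted in full under several similar names would not show in this way. The copy within SREBF2 was the higher of the pair in 30 of 30 calves. Its mean level was 3.38 times that of the SREBF1 copy, and its share of the summed CPM of the pair ran from 69.3% to 89.1%, with a median of 77.1%. At this depth the counting error alone (1 SD) was 9.21% to 12.4% of the value for miR-33a and 15.8% to 31.6% for miR-33b. Such errors cover counting only, since the reads carry no molecular identifiers.

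miR-33a was lower in HI calves. In HI calves its lowest, median and highest values were 8.13, 9.12 and 11.5 CPM, and in MOD calves they were 9.06, 10.8 and 13.5 CPM. The groups overlapped in the middle of their ranges. Of the 15 HI calves, 14 lay below the MOD median and 6 below the lowest MOD calf, while 5 MOD calves lay above the highest HI calf. HI calves averaged 9.25 ± 1.02 CPM and MOD calves 11.01 ± 1.34 CPM (SD, n = 15 each), a level 16.0% lower in HI. This rested on 1235 reads of miR-33a over the HI libraries and 1396 over the MOD libraries. On the log2(CPM + 1) scale, which understates the change of low miRNAs, the difference was -0.23 (standard error 0.06, 95% interval -0.35 to -0.10), with FDR = 0.0396 from limma with Benjamini-Hochberg adjustment over the 419 miRNAs. Its p ranked 9 of the 419. Its size was far from the fold change of 1.5 that the study also required (0.58 on the log2 scale), and the interval lay wholly within that bound.

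**Figure D1:**
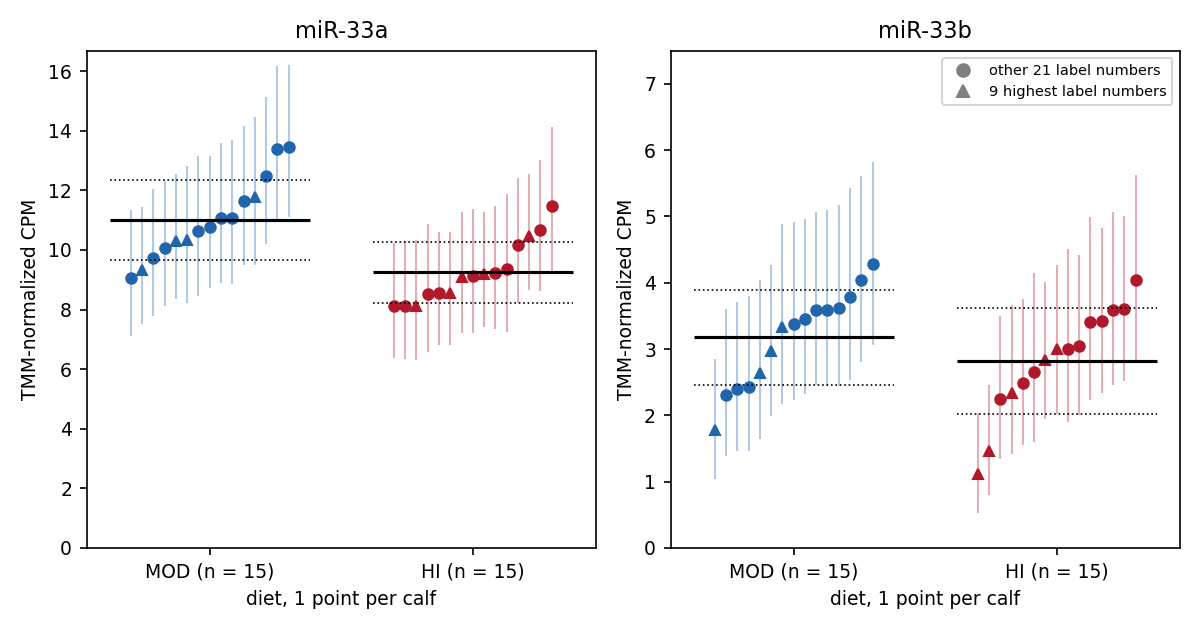
TMM-normalized CPM of miR-33a (left) and miR-33b (right) in each calf by diet, sorted within diet; vertical bars are exact 95% Poisson intervals of the reads, solid lines the mean, dotted lines 1 SD, and triangles the 9 libraries with the highest label numbers. For miR-33a, 14 of 15 HI calves lie below the MOD median; for miR-33b the diets overlap over most of their range, and the 3 lowest points are triangles.

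In the same limma fit 15 of the 419 miRNAs (3.58%) passed FDR < 0.1, of which 7 were lower in HI calves (1.67%), and 1 of the 2 members was among them; 8 (1.91%) were higher. With the fold change threshold added, 2 miRNAs (0.477%) and neither member passed. The split of 8 higher and 7 lower became 16 higher and 2 lower on total reads (4.3% of 419 called) and 3 higher and 26 lower with upper quartile scaling (6.92%). Among the 7 that were lower, miR-33a had the lowest mean level by far, the next being miR-205 at 304 CPM and the others lying between 2776 and 59823 CPM.

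**Figure D2:**
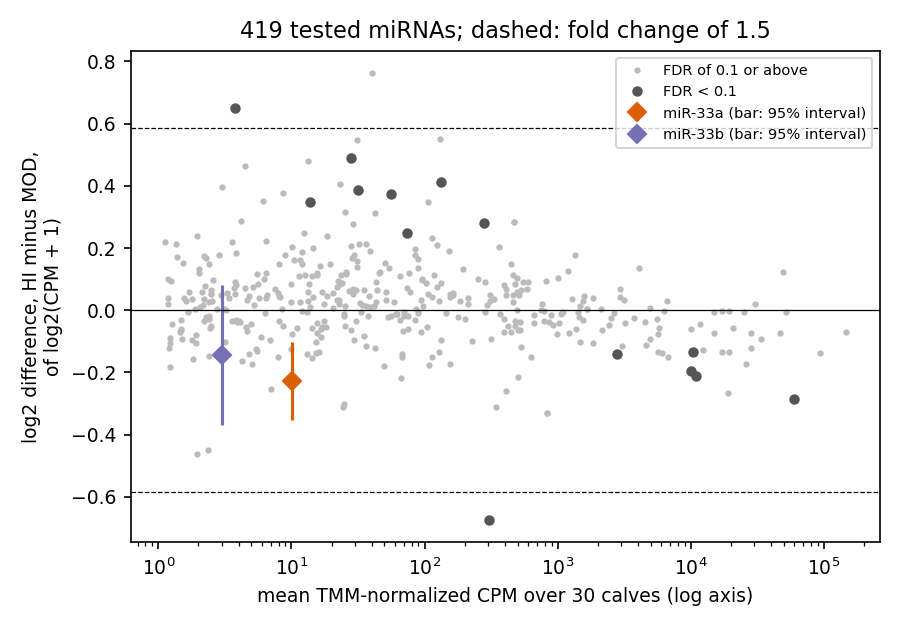
Mean CPM over 30 calves (log axis) against the log2 difference between HI and MOD for the 419 tested miRNAs, with the 95% intervals of the members and dashed lines at a fold change of 1.5. miR-33a lies at -0.23 with an interval below 0, and the interval of miR-33b, at -0.14, crosses 0.

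The FDR of miR-33a depended on the scaling of the libraries. On total reads its log2 difference was -0.17 with FDR = 0.182 from limma, and with totals that left out the 5 most abundant miRNAs it was -0.17 with FDR = 0.145. With upper quartile scaling it was -0.32 with FDR = 0.00651. These scalings moved all miRNAs together: the median log2 difference of the tested miRNAs was 0.02 as deposited, 0.07 on total reads and -0.07 with upper quartile scaling. Relative to that median, miR-33a lay at -0.24 in each of these 3 scalings and at -0.25 with totals without the 5 most abundant. On the recovered reads, edgeR's quasi-likelihood test gave a log2 difference of -0.23 with FDR = 0.0508, where 4.77% of miRNAs passed.

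miR-33b did not pass the test. In HI calves its lowest, median and highest values were 1.11, 2.99 and 4.04 CPM, and in MOD calves they were 1.78, 3.38 and 4.28 CPM. The diets overlapped over most of their range, with 10 of 15 HI calves below the MOD median and 2 below the lowest MOD calf. HI calves averaged 2.81 ± 0.802 CPM and MOD calves 3.17 ± 0.716 CPM (SD, n = 15 each). The log2 difference was -0.14 (standard error 0.11, FDR = 0.721 from limma), and its 95% interval ran from -0.37 to 0.08. That interval contains the estimate of miR-33a, so an equal log2 difference in miR-33b is not excluded. On the log2(CPM + 1) scale the scarcer miR-33b is shrunk more than miR-33a. With 0.1 CPM added instead, the differences were -0.20 for miR-33b and -0.25 for miR-33a. Summed over the pair, HI calves were at 12.1 ± 1.49 CPM and MOD calves at 14.2 ± 1.53 CPM (SD, n = 15 each), and 7 HI calves lay below the lowest MOD calf.

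Whether the 2 members differed in their diet difference was asked with the ratio of their reads in each library, which no scaling can change. The ratio of miR-33a to miR-33b reads ran from 2.26 to 8.20 in HI calves (median 3.27) and from 2.35 to 5.76 in MOD calves (median 3.54). The mean log2 ratio, with 0.5 read added to each, was 1.76 ± 0.47 for HI and 1.80 ± 0.38 for MOD calves (SD, n = 15 each). The difference was -0.05 (95% interval -0.37 to 0.27, two-sided permutation test of 1e+05 resamples, p = 0.772). The difference between the members in their response did not pass the test, and the interval is wide enough to hold the whole estimate of either.

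The diet difference of miR-33a was also read within sets of libraries. Within the 21 libraries with lower label numbers HI calves had 9.33 ± 1.12 CPM of miR-33a (SD, n = 10) and MOD calves 11.2 ± 1.43 CPM (SD, n = 11), a log2 difference of -0.24 (exact two-sided permutation test, p = 0.00335). Within the other 9 the HI calves had 9.08 ± 0.883 CPM (SD, n = 5) and the MOD calves 10.4 ± 1.02 CPM (SD, n = 4), a difference of -0.18 (exact permutation test, p = 0.0794). A change of the diet difference between the sets did not pass the test (interaction in limma 0.06, FDR = 0.904 over 419 miRNAs). Fitted with limma in the 21 libraries alone, a setting chosen after seeing the data, miR-33a had FDR = 0.127, where 11 of 417 miRNAs (2.64%) passed. For miR-33b the log2 difference was -0.07 within the 21 (exact permutation test, p = 0.501) and -0.25 within the 9 (exact permutation test, p = 0.317).

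The last digits of the label numbers fall into 4 ranges, here A to D in rising order, and these divided the calves unevenly. HI calves had the lower mean of miR-33a in each of the 4, but by differing amounts. In range A the 2 HI calves had 8.52 and 10.5 CPM and the 5 MOD calves 9.74 to 13.5 CPM. In range B the 2 HI calves had 8.13 and 8.14 CPM and the only MOD calf had 13.4 CPM. In range C the 3 HI calves had 8.55 to 9.12 CPM and the only MOD calf 9.33 CPM. Range D was the only one with equal numbers, and there HI calves had 9.59 ± 1.11 CPM of miR-33a and MOD calves 10.6 ± 0.822 CPM (SD, n = 8 each). The log2 difference of -0.13 in range D (95% interval -0.31 to 0.05) had FDR = 0.588 from limma, a fit chosen after seeing the data, in which 2 of 419 miRNAs (0.477%) passed. With the range as a block over all 30 calves the difference was -0.20 with FDR = 0.133 from limma. Both of the MOD calves above 13 CPM were in ranges A and B. The labels do not say what the ranges stand for.

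**Figure D3:**
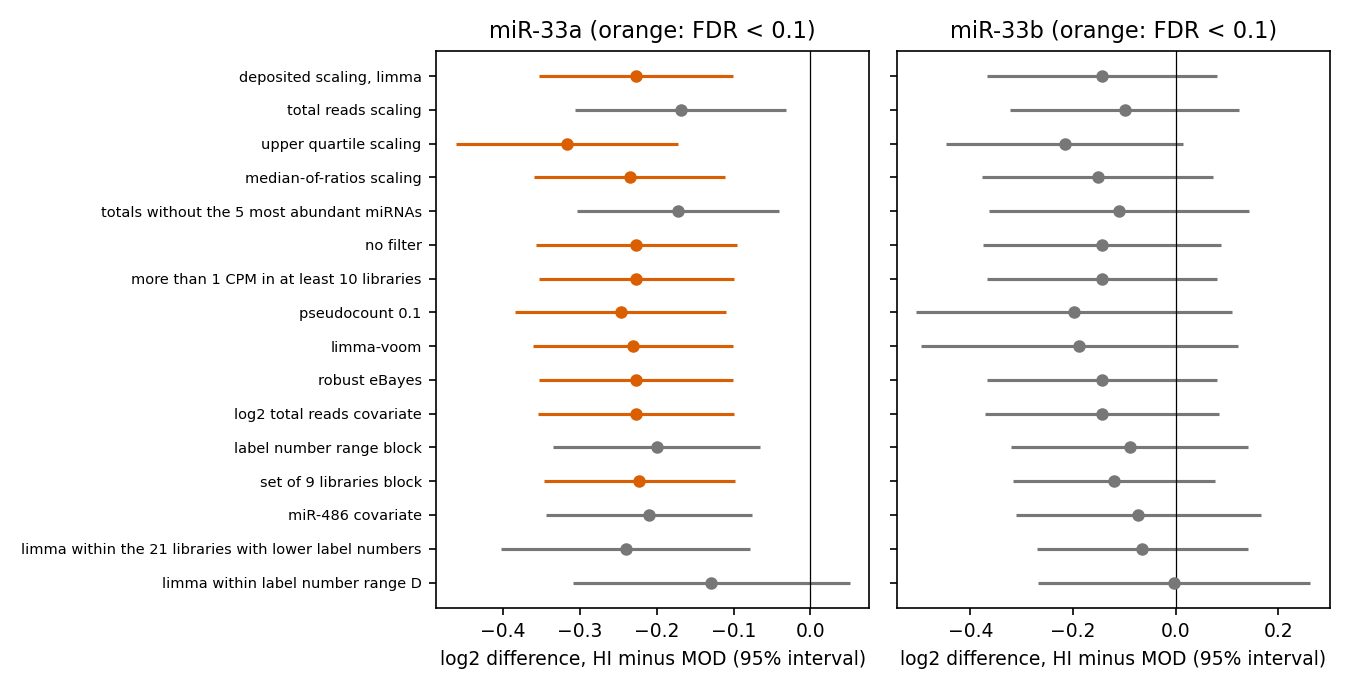
Log2 difference between HI and MOD with 95% intervals for miR-33a (left) and miR-33b (right) under each setting that gives an interval, orange where FDR < 0.1. Every estimate lies below 0; for miR-33a all intervals but that of label number range D exclude 0, and for miR-33b all include it.

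miR-33b, in contrast, was lower in the 9 libraries with the highest label numbers. Its lowest, median and highest values there were 1.11, 2.65 and 3.33 CPM, against 2.24, 3.42 and 4.28 CPM in the other 21. The 3 lowest calves of the series all belonged to the 9. With diet in the model its log2 difference between the sets was -0.34 (standard error 0.11, FDR = 0.0212 from limma). In that comparison 109 of the 419 miRNAs (26.0%) passed FDR < 0.1, so such a difference was common. As the split was first noticed in other miRNAs of these same libraries, its FDR values are a description and no independent support. For miR-33a the corresponding difference was -0.06 (standard error 0.07, FDR = 0.542). The difference between these set differences was not tested. The ratio of miR-33a to miR-33b reads averaged 3.28 ± 0.817 over the 21 libraries (SD, n = 21) and 4.51 ± 1.73 over the 9 (SD, n = 9).

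The extremes of miR-33b came from a few calves. HI replicate 14 had the lowest value, 1.11 CPM from 10 reads, together with 82 reads of miR-33a, and so the highest ratio, 8.20. HI replicate 15 followed with 1.46 CPM from 14 reads, also beside 82 reads of miR-33a. The highest HI value, 4.04 CPM from 35 reads, was that of HI replicate 1, which shares label number range C with these calves. In the MOD group the lowest was MOD replicate 7 with 1.78 CPM from 17 reads, and the highest was MOD replicate 11 with 4.28 CPM from 40 reads.

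miR-33a varied little between calves. Within diets its coefficient of variation was 11.04% in HI and 12.2% in MOD calves, and the counting error of the same reads was 11.2% and 10.4%. The variance of its reads within diets was 1.18 times the counting variance, against a median of 14.9 times over the 419 tested miRNAs. Counting takes a larger part of the variance in scarce miRNAs, so it was also set beside the 74 tested miRNAs within 2-fold of its mean level. These had a median of 4.29 times and a range of 1.21 to 191 times, and none was lower than miR-33a. For miR-33b the variance was 1.74 times the counting variance, close to the median of 1.89 times of the 78 miRNAs within 2-fold of its level, 34 of which were lower. Its coefficients of variation were 28.5% in HI and 22.5% in MOD calves, with counting errors of 21.3% and 19.9%.

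No correlation between the pair over the calves passed the test. Pearson's r of their log2(CPM + 1) values was 0.28 (permutation p = 0.136) and Spearman's rho was 0.21 (permutation p = 0.265, n = 30). Without the 2 calves farthest from the miR-33a median r was 0.23 (permutation p = 0.229). It was 0.32 within HI calves (permutation p = 0.250) and 0.02 within MOD calves (permutation p = 0.956). Within the 21 libraries it was 0.10 (permutation p = 0.655), and within the 9 it was 0.47 (exact permutation p = 0.203). These are among 8 relations computed, and the lowest adjusted p of Pearson's r was 0.334.

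**Figure D4:**
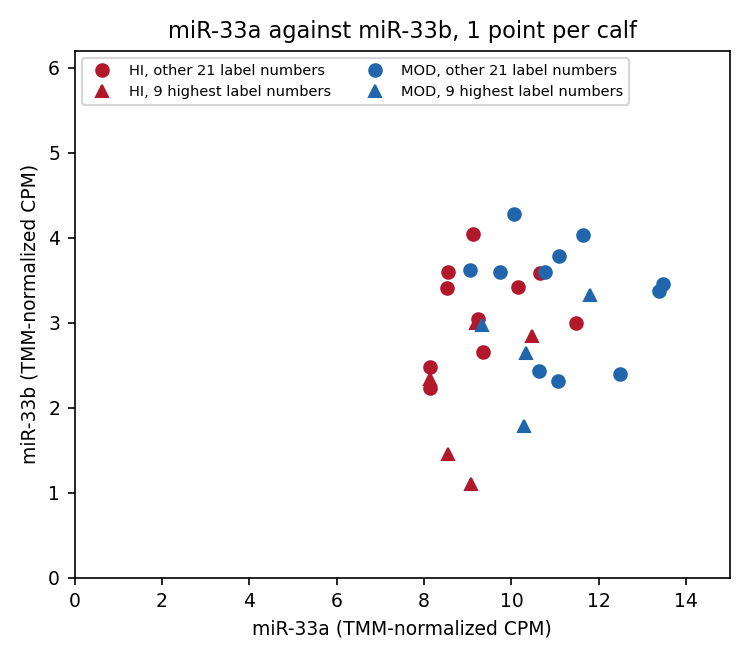
CPM of miR-33a against CPM of miR-33b, 1 point per calf, by diet (colour) and by label number set (triangles, the 9 highest). HI calves sit to the left, between 8.13 and 11.5 CPM of miR-33a, and triangles sit low, between 1.11 and 3.33 CPM of miR-33b.

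As a description, the miRNAs most like each member over the 30 libraries were ranked by Spearman's rho among the tested miRNAs. For miR-33a they were miR-30a-5p (rho 0.60), miR-30e-5p (0.59), miR-26b (0.47), miR-2285u (0.45) and let-7g (0.45). All 5 had lower estimates in HI calves, between -0.14 and -0.09, of which only that of miR-26b passed FDR < 0.1. For miR-33b they were miR-6123 (rho 0.64), miR-23a (0.64), miR-200c (0.61), miR-193a-3p (0.59) and miR-299 (0.58). None of these passed FDR < 0.1 between diets, and their log2 differences ran from -0.11 to -0.01. The lists share no miRNA, and miR-33b ranked 66 in likeness to miR-33a. These values share the scaling and depth of the libraries. The ranking also pooled both diets, and miR-33a was itself lower in HI calves. Lower estimates among the miRNAs most like it therefore follow in part from the ranking and are no separate evidence.

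Other miRNAs known from lipid metabolism were read in the same fit. The lists held 47 miRNAs in all, of which 46 were tested, miR-122 being too low at no more than 0.209 CPM. A total of 7 of the 46 passed FDR < 0.1 (15.2%, beside 3.58% of all tested), 2 higher and 5 lower in HI calves. That split turned with the scaling, to 3 higher and 2 lower on total reads, 3 higher and 1 lower with totals without the 5 most abundant miRNAs, and 1 higher and 9 lower with upper quartile scaling. The split over all tested miRNAs turned likewise, to 16 higher and 2 lower, 19 higher and 1 lower, and 3 higher and 26 lower in the same order. The lists were written with earlier results of these data known, which included some of these 7, so the share is no independent evidence. The median log2 difference was 0.01 over the lists and 0.02 over all tested miRNAs.

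Among 22 miRNAs described as acting on cholesterol export and lipoprotein uptake, 3 were lower in HI calves in limma and the others did not pass. That is 13.6%, beside 3.58% of all tested. The lower ones were miR-26a, which like miR-33 has been described as lowering ABCA1, its relative miR-26b, and miR-125a. miR-26b had 10913 ± 657 CPM in the MOD group and 9955 ± 635 CPM in the HI group (SD, n = 15 each), a log2 difference of -0.13 (FDR = 0.0396 from limma). miR-125a had 10682 ± 1116 CPM in the MOD group and 9330 ± 966 CPM in the HI group (SD, n = 15 each), a difference of -0.20 (FDR = 0.0468 from limma). Others of this list did not pass, among them miR-148a at -0.14 (FDR = 0.529), miR-27b at -0.07 (FDR = 0.732) and miR-144 at 0.46 (FDR = 0.115). The study, with edgeR, reported miR-144 as higher in HI calves. With a mean of 4.44 CPM, miR-144 is one of the low miRNAs whose change the log2(CPM + 1) scale understates.

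Of 15 tested miRNAs of the SREBP pathway and lipid synthesis, 1 was higher and 2 were lower in HI calves (20% called, beside 3.58% of all tested). miR-34a, known for action on the deacetylase SIRT1, was the higher, miR-205 was lower, and miR-29a was lower by a small amount, from 2914 ± 208 CPM in MOD to 2638 ± 143 CPM in HI calves (SD, n = 15 each, log2 difference -0.14, FDR = 0.0365 from limma). The miR-182, miR-96 and miR-183 cluster, known as induced by SREBP-2, had differences of -0.17, -0.14 and -0.06, and none passed (FDR of 0.329, 0.721 and 0.902 from limma). Of 16 miRNAs of adipocyte, insulin and energy metabolism, 1 passed (6.25%, beside 3.58% of all tested). It was miR-378, carried within the PPARGC1B gene. miR-378 was higher in HI calves at 309 ± 57.6 CPM against 254 ± 40.9 CPM in MOD (SD, n = 15 each), a difference of 0.28 (FDR = 0.0874 from limma). The abundant miR-375 and miR-143 of this list were at -0.07 and 0.12 (FDR of 0.873 each).

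**Figure D5:**
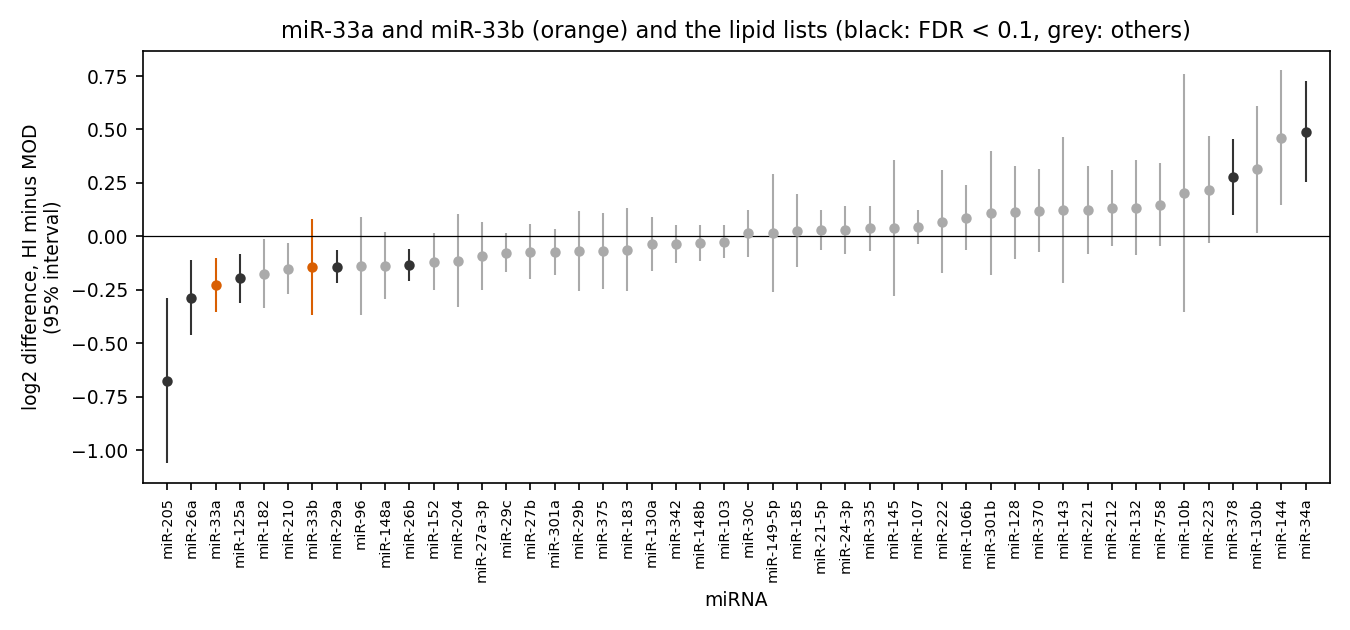
Log2 difference between HI and MOD with 95% intervals for miR-33a and miR-33b (orange) and the 46 tested miRNAs of the lipid lists (black where FDR < 0.1). The intervals of 5 listed miRNAs at FDR < 0.1 lie below 0 and of 2 above it, and that of miR-33a also lies below.

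Red blood cell miRNAs were read beside the miR-33a result. The summed level of miR-451, miR-144 and miR-486 ran from 10578 to 24489 CPM for HI and from 15557 to 27422 CPM for MOD, nearly all of it miR-486. The 3 did not point one way between the diets: the log2 difference was -0.27 for miR-486 (FDR = 0.274 from limma), 0.55 for miR-451 (FDR = 0.190) and 0.46 for miR-144 (FDR = 0.115). Over the 30 libraries miR-33a had a rho of 0.36 with miR-486 and of -0.41 with miR-451. With miR-486, the only one of the 3 used as a covariate, in the model the log2 difference of miR-33a was -0.21 with FDR = 0.104 from limma, just above the threshold, and that of miR-33b was -0.07 with FDR = 0.899. The 7 pituitary endocrine miRNAs, which summed to 136048 to 232042 CPM for HI and 156618 to 230380 CPM for MOD, overlapped between the diets. White blood cell miRNAs summed to 428 to 733 CPM for HI and 402 to 830 CPM for MOD, and those of smooth muscle and stroma to 32071 to 183141 CPM and 33270 to 76081 CPM. The part of other cell types in the miR-33a difference was not tested.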

How the data were processed

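Small RNA of 30 anterior pituitaries was sequenced by the authors, who trimmed adapters, filtered reads by length and against other RNA classes, and counted mature bovine miRNAs with miRDeep2 on assembly ARS-UCD1.2; the submitters' processing notes name cutadapt 2.6 and edgeR 3.5. Each deposited value is a signal in CPM that the authors scaled with TMM factors, not a raw count. The spacing of low values gave the whole reads back: at least 94.6% of the values up to 50 reads in a library were whole within 0.001 of a read, and the recovery was tested on 20 simulated libraries. A count of 0 allows up to 3 reads, worth 0.266 to 0.419 CPM.

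HI and MOD were compared with limma 3.58.1 (R 4.3.3) on log2(CPM + 1) values, over the 419 miRNAs passing filterByExpr on the recovered reads, at FDR < 0.1; the fit was tested on simulated data. edgeR 4.0.16 and DESeq2 1.42.0 on the recovered, rounded reads were alternatives; the quasi-likelihood test of edgeR called 20 of the 419 miRNAs at FDR < 0.1. Single values were compared with two-sided permutation tests of 1e+05 resamples, exact within sets of libraries, and 95% intervals of reads are exact Poisson intervals. Named miRNAs are the members, the 5 most like each, lipid list members past FDR < 0.1 or with the highest levels or lowest p, and marker miRNAs. miR-182, miR-96 and miR-183 were named as a cluster after their values were seen. The members and lists were chosen with earlier results of these data known. Mature sequences were not used here.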

Additional observations from a re-analysis of the deposited data

How the results depend on the processing

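The study states that age, bodyweight, sire and farm of origin were used to block the calves before diets were assigned. The labels do not give these blocks, so no paired analysis or analysis by block was possible. Equal replicate numbers in HI and MOD do not mark a pair. For miR-33a the log2 difference between HI and MOD stayed below 0 in every setting run but no longer passed FDR < 0.1 in limma on total reads (-0.17), with totals without the 5 most abundant miRNAs (-0.17), with a block for label number range (-0.20) and with miR-486 as a covariate (-0.21). After seeing the data, limma within the 21 libraries (-0.24) and within label number range D (-0.13) also did not pass it, both with fewer calves. Within the 9 libraries the difference was -0.18 (exact permutation p = 0.0794). Over the 30 fits that each left out 1 calf it ran from -0.25 to -0.21 and FDR from 0.0255 to 0.0672. For miR-33b the difference stayed below 0 and did not pass FDR < 0.1 in any setting run, and it ran from -0.18 to -0.08 over those 30 fits. The difference in log2 read ratio reversed within the 9 libraries (0.18, exact permutation p = 0.667), and over the 30 fits it ran from -0.13 to 0.0033, the last without MOD replicate 7. Pearson's r of the pair ran from 0.22 to 0.33 over these fits.

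The number of tested miRNAs past FDR < 0.1 was 15, but 29 with upper quartile scaling, 24 with DESeq2 and 2 within label number range D, and it ran from 14 to 21 with 1 calf left out. The number of lipid list miRNAs past it was 7, but 10 with upper quartile scaling, beside 29 of all 419. It was 4 with totals without the 5 most abundant, beside 20 of all 419, and 4 with the range block, beside 12 of 419. Within the 21 libraries it was 3, beside 11 of 417. It was 0 in limma within range D, where 6 of 45, and 39 of all 419 tested, had an unadjusted p under 0.05. With 1 calf left out it ran from 5 to 8. Some of these fits held fewer calves, and the cause of the changes in number was not tested.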

Other observations

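The miRNAs least like each member over the 30 libraries, chosen after their values were seen, are given as a description with no test. For miR-33a they were miR-2454-3p (Spearman's rho -0.65), miR-4286 (-0.50) and miR-323 (-0.50). For miR-33b they were miR-128 (rho -0.66), miR-11971 (-0.62) and miR-2285ba (-0.56). miR-33b also ran against miR-375, the most abundant miRNA of these libraries (rho -0.53), while miR-33a did not (rho 0.07). The rest of the pituitary endocrine list went both ways with miR-33b. Its rho was -0.56 with miR-429 and -0.27 with miR-200a, but 0.61 with miR-200c, 0.26 with miR-200b, 0.21 with miR-141 and 0.06 with miR-7. These values pool both label number sets, between which miR-33b differed.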
